A study of Mus musculus with 4 samples.

Results

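The fibroblast growth factor (FGF) ligands described here are the genes Fgf1, Fgf2, Fgf4, Fgf5, Fgf7, Fgf9, Fgf10 and Fgf13, followed in RNA of whole newborn mouse lenses. They were taken as every probe set, the group of short oligonucleotides that reports 1 transcript on an Affymetrix array, whose platform annotation names exactly 1 of these 8 genes. That rule gave 17 of the 45101 probe sets on the array, for 8 of 18193 genes with a probe set of their own: 4 for Fgf4, 3 for Fgf1, 2 each for Fgf5, Fgf7, Fgf9 and Fgf13, and 1 each for Fgf2 and Fgf10. Lenses lacking Hsf4, the gene of heat shock transcription factor 4, were compared with wild-type lenses, with 2 arrays per group that the labels number 1 and 2. All 4 samples are labelled as lens of postnatal day 0.5 from male mice of the 129S3 background. Neither the knockout allele nor separate animals behind the arrays of a group are described in the labels, so what the spread between arrays covers is unknown. Xist, described below, differed strongly between the 2 arrays of each group.

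FGFs are signalling proteins that bind receptor tyrosine kinases together with heparan sulfate and switch on the ERK kinase path in the receiving cell. In the lens, FGF reaching the epithelium from the surrounding eye fluids drives cells to divide and to become fibre cells. Fgf1 and Fgf2 encode ligands without a classical secretion signal, Fgf4, Fgf5 and Fgf9 encode secreted ligands, and Fgf7 and Fgf10 encode ligands that mesenchyme makes and epithelium receives. Fgf13 encodes a fibroblast growth factor homologous factor (FHF), which stays inside the cell, binds voltage-gated sodium channels and microtubules, and is best known from neurons. In another mouse line without Hsf4, raised RNA of Fgf1, Fgf4 and Fgf7 has been described in the lens epithelium.

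Levels are intensities brought to 1 distribution by quantile normalization, since the deposited medians of the 4 arrays lay between 6.58 and 21.4. A log2 change is the knockout mean less the wild-type mean of log2(intensity + 16), which understates the change of dim probe sets. The only Hsf4 probe set measured 1212 and 413 on the knockout arrays 1 and 2, against 505 and 138 on the wild-type arrays. This probe set was thus brighter in the mean of the libraries labelled knockout, with overlapping groups, and could not check the labels. Its position relative to the deletion is unknown here, and directions therefore refer to the libraries as labelled. Xist, an RNA of X inactivation normally made in females, measured 260 and 9.01 on knockout arrays 1 and 2 and 605 and 58.0 on wild-type arrays 1 and 2. Eif2s3y, on the Y chromosome, measured 101 and 161 on the knockout arrays and 60.4 and 208 on the wild-type arrays, so the labelled sex of the arrays numbered 1 is in doubt. The lens label was matched by a high level of the crystallin gene Cryaa. It measured 8768 and 9184 on knockout arrays 1 and 2, and 8512 on each wild-type array. All 9 annotated fibre genes passed the filter on low values described next. All 9 annotated neural retina genes did too, so passing that filter does not identify a tissue.

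Only Fgf9 and Fgf13 gave a signal clearly over background on all 4 arrays. Background was set from 81 probe sets of olfactory, vomeronasal and trace amine receptors, genes of the nose taken as unused in lens. Their 95th percentile was 9.31 and 23.5 on knockout arrays 1 and 2, and 12.5 and 12.4 on wild-type arrays 1 and 2. Both Fgf9 probe sets and 1 of the 2 Fgf13 probe sets lay above it on every array, while 8 of the 17 lay above it on none. The other 6 were above it on some arrays. Those on none were the single probe sets of Fgf2 and Fgf10, both of Fgf5, 3 of the 4 of Fgf4 and 1 of the 3 of Fgf1. Counted by array, 7 and 3 of the 17 were above background on knockout arrays 1 and 2, and 5 and 7 on wild-type arrays 1 and 2, where by construction 4 of the 81 receptor probe sets also were.

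**Figure D1:**
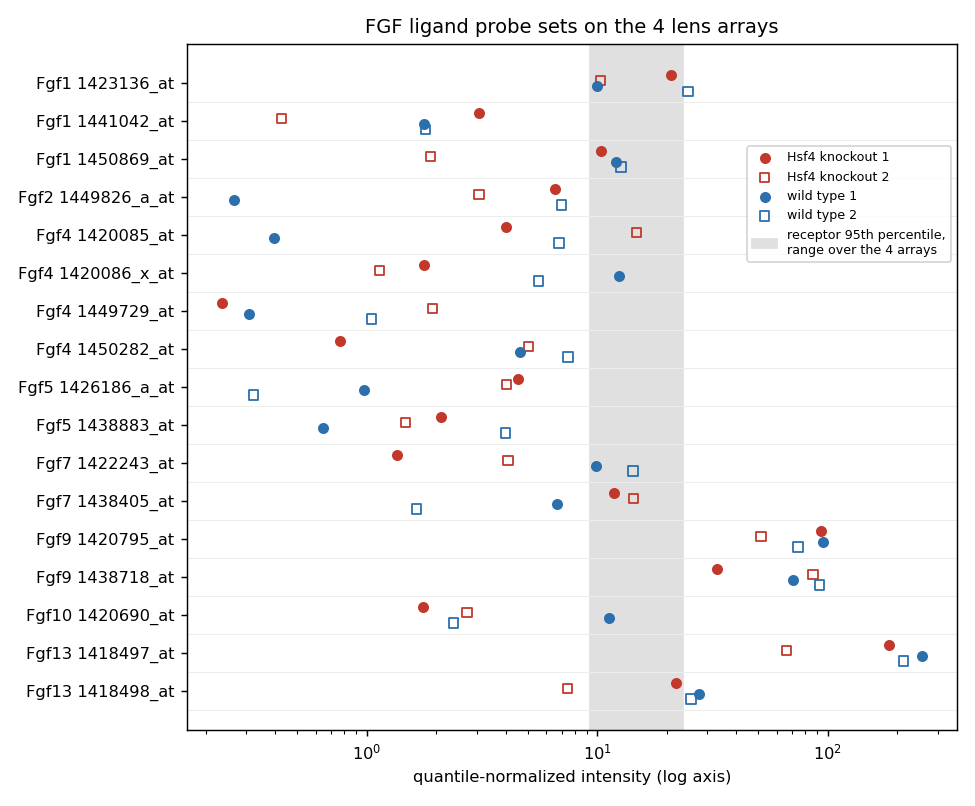
Quantile-normalized intensity (log axis) of the 17 FGF ligand probe sets on the 2 Hsf4 knockout and 2 wild-type arrays, with the range over arrays of the 95th percentile of the receptor probe sets shaded (9.31 to 23.5). Both Fgf9 probe sets and Fgf13 1418497_at lie above the shaded range on all 4 arrays, and the other probe sets lie in or below it on at least 1 array.

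No FGF ligand probe set passed the threshold between knockout and wild type in limma's moderated test with Benjamini-Hochberg adjustment over all probe sets. The test covered 22519 probe sets whose mean log2 value reached the median of the array, and 5 of the 17 were among them: 1 of Fgf1 and both of Fgf9 and Fgf13. Of all probe sets tested, 4, or 0.0178%, passed the adjusted threshold of 0.05, and 0 of the 5 did. At an unadjusted p under 0.05 there was 1 of the 5, the Fgf13 probe set 1418497_at, beside 524 (2.33%) of all tested. The groups did not overlap for 2 of the 5, both of Fgf13 and both lower in knockout, while 14.4% of all tested probe sets were lower in this way and 27% did not overlap in either direction. An exact two-sided permutation test of 2 arrays against 2 cannot give a p under 0.333.

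Fgf13 measured lower on both knockout arrays than on either wild-type array with each of its probe sets, which were designed from 1 sequence record. Probe set 1418497_at measured 185 and 66.0 on knockout arrays 1 and 2, against 258 and 213 on wild-type arrays 1 and 2. Both knockout values lie below both wild-type values, but knockout array 2 lies far below knockout array 1. The means were 125 ± 83.9 in knockout and 235 ± 31.6 in wild type (SD, n = 2 each), a log2 change of -0.96 (SE 0.42, unadjusted p = 0.0469, limma adjusted p = 1). Probe set 1418498_at measured 22.0 and 7.40 on the knockout arrays, the second of them under background, and 27.6 and 25.5 on the wild-type arrays. Its log2 change was -0.51 (SE 0.35, limma adjusted p = 1). As deposited, before any scaling, 1418497_at measured 255 and 21.2 on the knockout arrays and 400 and 157 on the wild-type arrays. Groups overlap on that scale, where knockout array 1 lies above wild-type array 2.

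The size of the Fgf13 difference rested on knockout array 2. That array was also the dimmest as deposited, with a median of 6.58. The medians were 18.5 on knockout array 1, and 21.4 and 10.5 on wild-type arrays 1 and 2. After normalization the 95th percentile of the receptor probe sets was highest on knockout array 2, at 23.5. The part of this dimness in the values of Fgf13, or of other genes that were low on that array, was not tested. Between the arrays numbered 1 the log2 difference of 1418497_at was -0.45, and between those numbered 2 it was -1.48. Without knockout array 2 the log2 change was -0.32 (limma adjusted p = 1). Without knockout array 1 it was -1.61 with a limma adjusted p of 0.0145, but in that comparison 649 probe sets passed the threshold, against 4 with all arrays. For 1418498_at, leaving out knockout array 2 gave -0.16, and leaving out knockout array 1 gave -0.86.

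**Figure D2:**
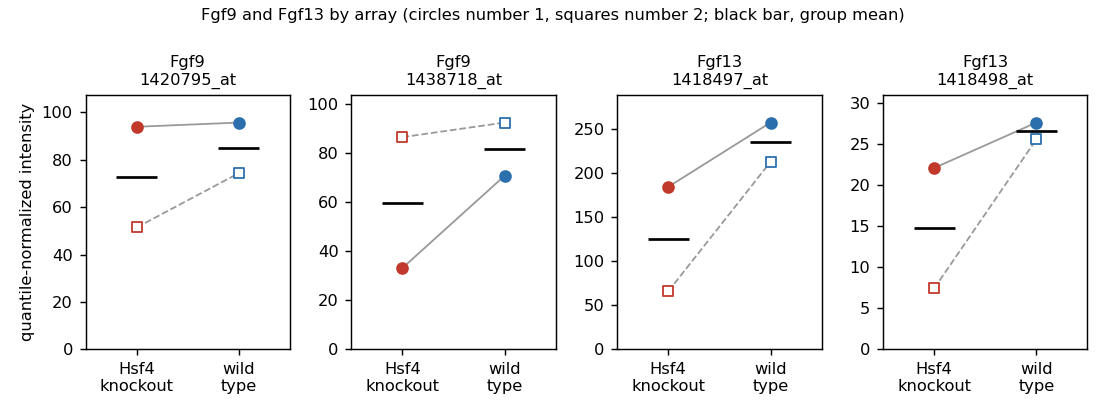
Quantile-normalized intensity of the Fgf9 and Fgf13 probe sets on each array, Hsf4 knockout left of wild type, with lines joining arrays of the same number (circles and solid lines, number 1; squares and dashed lines, number 2) and black bars for group means (n = 2). The 2 knockout values of 1418497_at, 185 and 66.0, lie below the wild-type values of 258 and 213, whereas the groups overlap for both Fgf9 probe sets.

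The summed level of retinal markers was lowest on the same array as Fgf13. Of 12 markers of neural retina 9 were annotated and tested, and all 9 were above background on at least 1 array. The sum was 2739 and 1471 on knockout arrays 1 and 2, against 2821 and 3063 on wild-type arrays 1 and 2. Knockout array 2 was also lowest for the sum of lens epithelium markers, at 3347 and 3262 in knockout and 4118 and 3607 in wild type. The fibroblast and pericyte sum, given below, was lowest on that array too. Isl1 and Gap43 of the retinal list were instead lowest on knockout array 1. The 9 retinal markers had a median log2 change of -0.65, with 0.05 between the arrays numbered 1 and -0.94 between those numbered 2. In limma 0 of them passed the adjusted threshold. An unadjusted p under 0.05 was found for 1 of the 9, where 269 (2.32%) of the 11595 genes tested by 1 probe set each had one. The groups did not overlap for 1 of the 9, near the 14.3% of those genes that were lower in this way. That marker was Snap25, a synaptic protein, which measured 271 and 255 in knockout and 410 and 437 in wild type and was picked out after its values were seen. In RNA of whole lenses, fewer cells of a type and less RNA per cell cannot be told apart. The part of retinal RNA in the values of Fgf13, and of Fgf9, Fgf12, Fgf14 and Syt1 described after it, was not tested. Fgf13 lies on the X chromosome and measured higher on array 1 than on array 2 in both groups, as Xist did, and the part of sex in its values was not tested either.

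Fgf9, which encodes a secreted ligand made by neural retina among other tissues, did not separate the groups. Probe set 1420795_at measured 93.8 and 51.4 on knockout arrays 1 and 2, against 95.6 and 74.3 on wild-type arrays 1 and 2. Knockout array 2 was the lowest, and knockout array 1 was close to wild-type array 1. The log2 change was -0.22 (SE 0.35, limma adjusted p = 1). Probe set 1438718_at measured 33.1 and 86.4 on the knockout arrays and 70.7 and 92.3 on the wild-type arrays, with a log2 change of -0.45 (SE 0.39, limma adjusted p = 1). Here knockout array 1 was the lowest, so the 2 probe sets of the gene named different knockout arrays as low. The sign turned for 1420795_at without knockout array 2, at 0.13, and for 1438718_at without knockout array 1, at 0.08.

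**Figure D3:**
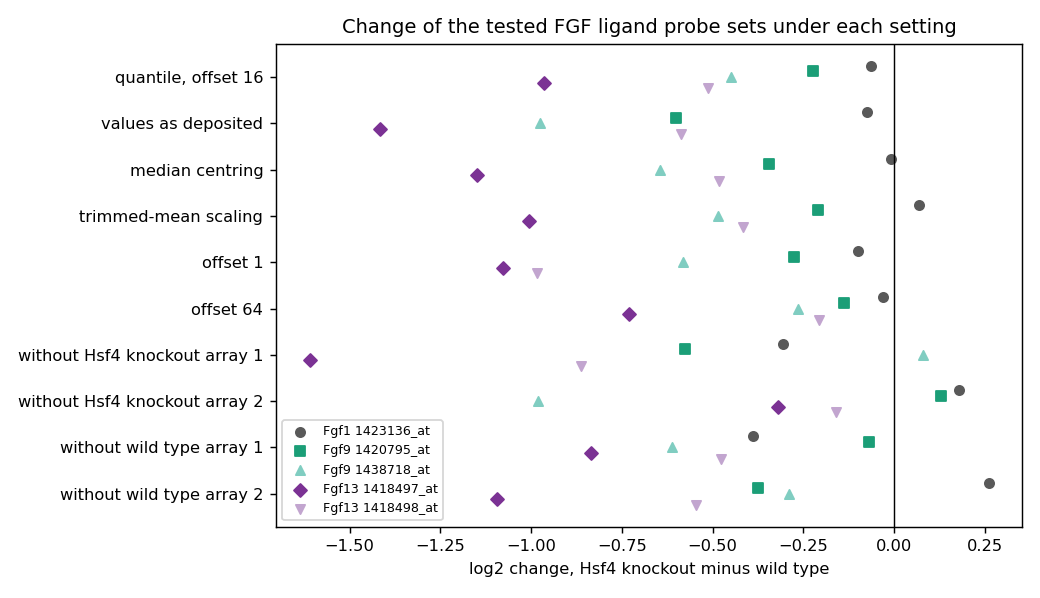
Log2 change, knockout minus wild type, of the 5 FGF ligand probe sets tested, under quantile normalization with an offset of 16 and under other scalings, offsets and with each array left out. Fgf13 1418497_at stays below 0 in every setting drawn, from -1.61 to -0.32, while both Fgf9 probe sets and Fgf1 1423136_at cross 0 in at least 1 setting. For Fgf13 only the other scalings could have changed the sign, since its groups do not overlap under quantile normalization.

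Fgf1 and Fgf2, the ligands without a secretion signal, measured near or under background, with overlapping groups for all but 1 Fgf1 probe set. For Fgf1, probe set 1423136_at measured 20.9 and 10.3 on knockout arrays 1 and 2 and 10.0 and 24.8 on wild-type arrays 1 and 2. Each group thus held 1 array above background and 1 below it. The log2 change was -0.06 (SE 0.37, limma adjusted p = 1), with 0.50 between the arrays numbered 1 and -0.63 between those numbered 2. Probe set 1450869_at, built from the same record, measured 10.4 and 1.89 in knockout and 12.0 and 12.7 in wild type and failed the filter. Its groups did not overlap, with knockout lower, but knockout array 2 and wild-type array 1 were under background. The third probe set of Fgf1, 1441042_at, read 3.07 and 0.43 in knockout and 1.78 and 1.80 in wild type. All 4 of its values were under background. Fgf2 measured 6.57 and 3.07 in knockout and 0.26 and 6.99 in wild type, all under background, so its level in either group was not measurable here.

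Fgf7, a keratinocyte growth factor of mesenchyme, gave opposite readings from its 2 probe sets, both near background. Probe set 1422243_at measured 1.35 and 4.10 on the knockout arrays and 9.90 and 14.3 on the wild-type arrays, so knockout was lower, with 1 wild-type array above background. Probe set 1438405_at measured 11.8 and 14.4 on the knockout arrays and 6.68 and 1.64 on the wild-type arrays, so knockout was higher, with knockout array 1 above background. Neither passed the filter, and no fold is given for values at this level. Fgf10, a ligand that induces buds of the lacrimal gland, measured 1.75 and 2.72 in knockout and 11.2 and 2.39 in wild type. Wild-type array 1 stood above the other 3, but all 4 values were under background.

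Fibroblast and pericyte markers, from cells of the kind that make Fgf7 and Fgf10, mostly measured lower in knockout. So did 1 Fgf7 probe set, while the other Fgf7 probe set measured higher. All 9 of the 9 markers were tested, and 6 were lower without overlap and 0 higher, where 14.3% of all 11595 genes tested were lower in this way and 12.7% higher. The groups overlapped for Thy1 and for the pericyte markers Rgs5 and Pdgfrb, at log2 changes of -0.68, 0.02 and -0.46. The median log2 change was -1.33, beside -0.01 over all genes tested. In limma 0 passed the adjusted threshold, and 6 had an unadjusted p under 0.05, as did 2.32% of all genes. These were the 6 without overlap, Lum included. The summed level was 1478 and 1070 on the knockout arrays and 1962 and 2406 on the wild-type arrays, and every marker was above background on at least 1 array. Striated muscle markers lay much further apart in the same direction. Of the 11, all annotated, 9 were tested, and all 9 were lower in knockout without overlap and had an unadjusted p under 0.05, with a median log2 change of -2.35. Among these, Tnnt3, Tnni2, Myl2, Myl1 and Actc1 were above background on neither knockout array. They passed the filter through their wild-type values, so their direction was partly fixed by the filter. The summed level of the 11 was 132 and 150 on the knockout arrays, against 2656 and 1373 on the wild-type arrays. Of the 11, 10 were above background on at least 1 array, Myog on none. Adjusted limma p-values passed for 2 of the 9, Myl1 and Actc1, which encode a myosin light chain and a muscle actin, at 0.0201 each, though no probe set at all passed with values as deposited or with no filter. The knockout arrays thus had lower summed levels than the wild-type arrays for both lists. The part of these tissues in the Fgf7 and Fgf10 values, or in those of any other FGF gene, was not tested.

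Fgf4 and Fgf5 were not measurable over background in most readings. Fgf4, a ligand of the early embryo and the limb bud, had 4 probe sets, 3 of them built from 1 record. Probe set 1420086_x_at measured 1.78 and 1.14 in knockout and 12.5 and 5.56 in wild type, without overlap. In contrast, 1420085_at, from the same record, measured 4.04 and 14.8 in knockout and 0.40 and 6.82 in wild type, with overlap. The other Fgf4 probe sets ranged from 0.24 to 5.05 in knockout and from 0.31 to 7.46 in wild type. Fgf5, known for ending the growth phase of hair, measured 4.52 and 4.05 in knockout and 0.98 and 0.32 in wild type with 1426186_a_at. These groups did not overlap, yet every value was under background. The second Fgf5 probe set, 1438883_at, measured 2.09 and 1.48 in knockout and 0.65 and 4.01 in wild type.

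Over all 17 probe sets, the groups did not overlap for 7, with 5 lower and 2 higher in knockout. Across the 45037 probe sets other than controls, 29.6% did not overlap, 14.8% lower and 14.8% higher. The 5 lower ones were both of Fgf13 and 1 each of Fgf1, Fgf4 and Fgf7, and the 2 higher ones were 1 each of Fgf5 and Fgf7. Apart from the 2 of Fgf13, each of these 7 was under background on at least 1 array of each group.

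The rest of the FGF pathway held no gene that passed the threshold. Genes were taken by their brightest tested probe set, and 3 of the 11595 genes, or 0.0259%, passed in limma. Of 14 other FGF genes 5 were tested, of 7 receptors and coreceptors 5, of 23 genes of heparan sulfate and FGF binding 21, of 19 receptor adaptors and ERK path genes 13, of 14 feedback targets 11, and of 9 genes of FGF release and FHF channel partners 6. None of these lists had a called gene in either direction, and 1 of their 61 tested genes, Syt1, had an unadjusted p under 0.05. Median log2 changes in that order of lists were 0.34, 0.48, -0.03, 0.00, -0.02 and -0.39, beside -0.01 over all genes tested.

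**Figure D4:**
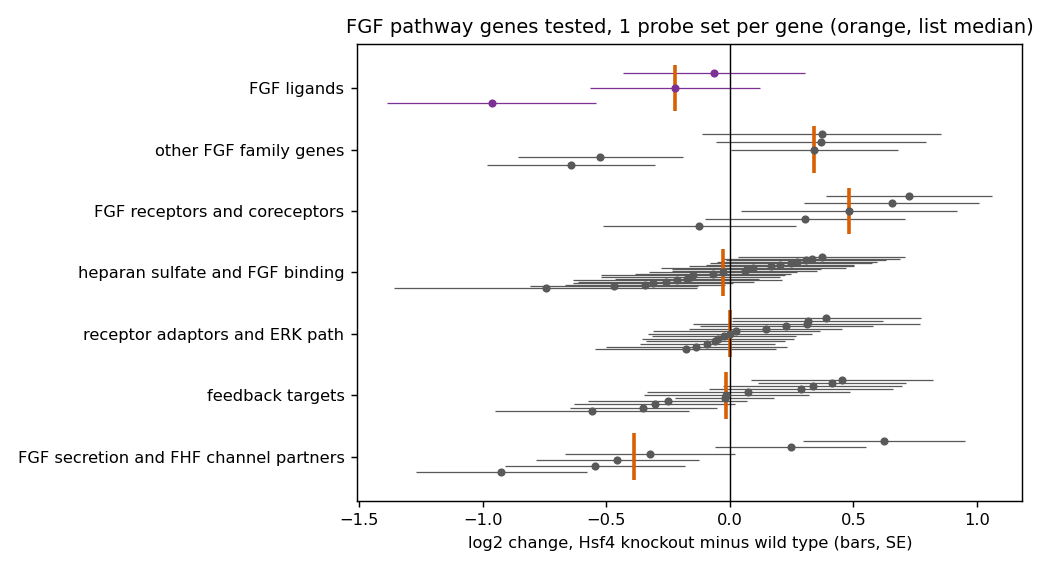
Log2 change, knockout minus wild type, of each tested gene of the FGF pathway lists (1 probe set per gene; bars, SE; orange, list median). The lowest gene of the ligands is Fgf13 at -0.96, the receptors have a median of 0.48, and no gene drawn passed the adjusted threshold.

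Among the other FGF genes the lowest p belonged to Fgf12 and Fgf14, which encode FHFs like Fgf13. Fgf12 measured 78.6 and 41.9 on knockout arrays 1 and 2 and 94.4 and 105 on wild-type arrays 1 and 2. Its log2 change was -0.64 (SE 0.34, limma adjusted p = 1), and its 3 tested probe sets had changes from -0.64 to -0.06. Fgf14 measured 10.6 and 8.49 in knockout, close to or under background, and 16.3 and 25.8 in wild type, a log2 change of -0.52 (SE 0.33, limma adjusted p = 1). Fgf11, the remaining FHF gene, measured 24.6 and 21.7 in knockout and 20.9 and 9.88 in wild type. Taken as a group after the values were seen, 3 of the 4 FHF genes were lower without overlap and 1 higher. Of all genes tested, 14.3% were lower in this way and 12.7% higher. Both knockout values of Fgf14 lay under the level of the filter. Fgf14 passed the filter through its wild-type values, so its direction in this count was partly fixed by the filter. For Fgf12 and Fgf14, as for Fgf13, the log2 difference was larger between the arrays numbered 2, at -1.06 and -0.77, than between those numbered 1, at -0.22 and -0.28. Retinal markers, whose median log2 difference was -0.94 between the arrays numbered 2 and 0.05 between those numbered 1, had that order too. A larger difference between the arrays numbered 2 was not particular to retina. Medians within number 1 and number 2 were 0.24 and 0.63 for FGF receptors and coreceptors, and -0.19 and 0.74 for vascular endothelium. Lens epithelium, at -0.27 and -0.21, and pigment cells, at 0.47 and 0.09, lacked that order.

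On the receiving side, Fgfr2, the receptor whose epithelial form binds Fgf7 and Fgf10, measured 125 and 187 in knockout and 103 and 71.8 in wild type. That was a log2 change of 0.73 (SE 0.34, limma adjusted p = 1), and 0.27 for its other tested probe set. Fgfr3 had a log2 change of 0.66 with overlapping groups, and of 0.57 without overlap for its other tested probe set. In the remaining lists the genes with the lowest p were Hs6st2 and Gpc3 of heparan sulfate (-0.47 and -0.75), the adaptors Crkl and Shc1 (0.32 and 0.39) and the feedback genes Egr1 and Dusp4 (-0.56 and 0.41), all with a limma adjusted p of 1. Syt1, a synaptic vesicle protein that also takes part in release of Fgf1, measured 203 and 123 in knockout and 260 and 383 in wild type (log2 -0.92, SE 0.35, limma adjusted p = 1). Its log2 difference was larger between the arrays numbered 2, at -1.52, than between those numbered 1, at -0.33. The retinal, receptor and endothelial medians were larger in size between the arrays numbered 2 as well. Of the 4 tested probe sets of Syt1, 1 had the opposite sign. S100a13, its partner in that release, had a log2 change of 0.62.

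The stretch upstream of each start site was searched for the heat shock element, the sequence that heat shock factors bind, spelled GAANNTTC on either strand. RefSeq promoter entries (GRCm38.p6) were found for 7 of the 8 genes, without Fgf1, and gave 10 start sites, 4 of them of Fgf13. In the 250 bases before the start, 1 of the 10 held the motif, at Fgf5, while 6.69% of 32851 such stretches of all genes did. A longer form with NNGAA added at the 3′ end was in 0 of the 10 and in 0.466% of all. The stretch with the motif is printed here because it is the only match, with the match in capitals, and those of Fgf9 and Fgf13 because these genes were measured over background. For Fgf13 the stretches of 2 of its 4 starts are given to show how unlike its alternative promoters are, with 45.6% and 74.8% G and C.
Fgf5, chr5:98253934-98254183, plus strand: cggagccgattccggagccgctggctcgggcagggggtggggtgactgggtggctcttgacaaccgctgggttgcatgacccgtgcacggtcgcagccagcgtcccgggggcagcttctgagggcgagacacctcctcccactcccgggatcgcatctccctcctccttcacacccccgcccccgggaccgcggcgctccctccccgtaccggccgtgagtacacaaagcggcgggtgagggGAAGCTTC
Fgf9, chr14:58072436-58072685, plus strand: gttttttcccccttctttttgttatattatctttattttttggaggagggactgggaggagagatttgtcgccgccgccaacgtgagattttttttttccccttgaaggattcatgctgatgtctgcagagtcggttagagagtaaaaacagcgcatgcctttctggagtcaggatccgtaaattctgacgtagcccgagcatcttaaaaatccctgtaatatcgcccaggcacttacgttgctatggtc
Fgf13, chrX:59585573-59585822, minus strand: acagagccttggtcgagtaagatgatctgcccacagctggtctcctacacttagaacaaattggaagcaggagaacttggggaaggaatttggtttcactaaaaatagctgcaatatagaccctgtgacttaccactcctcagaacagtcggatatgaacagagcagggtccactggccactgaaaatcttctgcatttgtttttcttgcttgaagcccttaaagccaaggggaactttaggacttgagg
Fgf13, chrX:59567349-59567598, minus strand: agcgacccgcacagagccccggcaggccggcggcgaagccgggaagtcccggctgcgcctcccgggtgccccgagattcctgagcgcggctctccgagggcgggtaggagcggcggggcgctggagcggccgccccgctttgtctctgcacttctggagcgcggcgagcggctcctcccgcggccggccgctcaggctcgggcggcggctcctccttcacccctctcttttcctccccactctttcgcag
The Fgf5 match ends at the last base before the start, with its first base 8 bases upstream. The stretches of Fgf9 and Fgf13 show no run of these letters, which says only that this spelling is not in these 250 bases.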

How the data were processed

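The values used were intensities, deposited by the authors as 1 linear value per probe set and array. No header or label names the software, background correction or scaling behind them, and the table holds no detection calls. Its 45101 probe sets were quantile normalized over the 4 arrays, an offset of 16 was added and log2 taken. The 64 control probe sets were then left out. Of the 45037 others, 34945 had 1 gene symbol, 932 several and 9160 none, and genes were named only from the first kind. Probe sets with a mean log2 value of at least 4.86, an intensity of about 13.0, were tested with limma 3.58.1 in R 4.3.3 (knockout minus wild type, variance trend, Benjamini-Hochberg adjustment, threshold 0.05). The number of arrays limits the precision.

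Every probe set of the 8 genes is described. Of each pathway list, genes that passed would be named, and otherwise the 2 with the lowest p. Fgf11, Cryaa, Snap25, Isl1, Gap43, Lum, Thy1, Rgs5, Pdgfrb, Tnnt3, Tnni2, Tnnc2, Myl2, Myl1, Actc1 and Myog fall outside that rule and were chosen after their values were seen. The genes and lists were chosen with earlier results of these data known. Alternatives were other scalings, offsets, filters and variance models, the array number as a block, 1 probe set per gene, and leaving out each array.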

Additional observations from a re-analysis of the deposited data

How the results depend on the processing

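The count of all probe sets called in limma was 4, and it was 0 with values as deposited (22 at an unadjusted p under 0.05) and 0 with no filter (1432), 2 with median centring, and between 5 and 649 with 1 array left out, where the lone array of a group is assumed to vary like the others. The 649 came without knockout array 1, and leaving out knockout array 2 gave 95. The count of FGF ligand probe sets called was 0 under each scaling, offset, filter and variance model and with 1 probe set per gene, and from 0 to 1 with 1 array left out, the 1 being Fgf13 1418497_at without knockout array 1. With the labels' number as a replicate block, 317 probe sets passed, among them 1 FGF ligand probe set, 1418497_at (limma adjusted p = 0.00606). No label ties a number to a common litter, batch or day. Deviations of same-numbered arrays from their group means had r = 0.43 across the probe sets tested, which are not independent, so the arrays share a number and its origin is unknown.

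Against the median of the receptor probe sets in place of their 95th percentile, 5 FGF ligand probe sets, not 3, were above background on all arrays. The log2 change of Fgf1 1423136_at turned to 0.070 with trimmed-mean scaling and 0.50 within number 1, and ranged from -0.39 to 0.26 with 1 array left out. For Fgf9 that range was -0.57 to 0.13 (1420795_at) and -0.98 to 0.079 (1438718_at). Both Fgf13 probe sets stayed below 0 in the 16 and 15 settings in which they were tested or compared within a number. Under quantile normalization their groups did not overlap, so the sign was fixed for every offset, array left out and number compared. Only the other scalings could have changed it. With values as deposited, median centring and trimmed-mean scaling, 1418497_at gave -1.42, -1.15 and -1.01. Probe set 1418498_at gave -0.59, -0.48 and -0.42. The cause of these changes was not tested. With most arrays at background, a change of Fgf2, Fgf4, Fgf5, Fgf7 or Fgf10 could not be measured here.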

Other observations

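With 4 arrays, likeness of pattern is weak evidence and is given only as a description. By Euclidean distance of the 4 centred log2 values, the genes nearest to Fgf13 1418497_at were Gnal, Oxct1 and Reck, at distances of 0.04, 0.16 and 0.16. Gnal, a G protein subunit of olfactory and striatal neurons, measured 32.3 and 3.49 on knockout arrays 1 and 2 and 51.5 and 38.8 on wild-type arrays 1 and 2. Oxct1, an enzyme of ketone body use, measured 443 and 170 in knockout and 563 and 442 in wild type. Reck, a membrane inhibitor of metalloproteinases, measured 42.4 and 8.41 in knockout and 56.3 and 44.3 in wild type. On all 3, knockout array 2 was the lowest of the arrays, which follows from choosing genes by likeness to Fgf13. The values of Gnal and Reck on that array were under background.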
